A study of Nothobranchius furzeri with 2 samples.

Results

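The genes of the growth hormone and insulin-like growth factor (IGF) axis were followed in the livers of female killifish (Nothobranchius furzeri) and in the skeletal muscles of both sexes after germ cell removal. They were chosen by name. A line of the count table was taken where its symbol was IGF1, IGF2, IGF1R, IGFALS, GHR or an IGFBP, with or without a digit, a paralog letter or a copy number. This gave 16 genes of 18529 annotated. Fish of the GRZ-AD strain, housed singly, had been injected at the one-cell stage with a standard control morpholino (control) or with one against dnd, a gene that primordial germ cells need to migrate and survive (germ cell-removed). Tissues were taken at 1.5 months (young) and 3 months (old), with 5 fish and 5 BRB-seq libraries in each group, giving 20 female livers and 40 muscles. Every group thus carried an injection, and removal dated from the embryo, so that effects in development and at the age of sampling cannot be told apart.

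Growth hormone from the pituitary acts on its receptor (GHR) in the liver and drives the secretion of IGF-1, which, with IGF-2, signals through the IGF-1 receptor to promote growth. In blood the ligands are held by IGF binding proteins (IGFBPs), and the acid-labile subunit (IGFALS) stabilizes the complex of ligand and binding protein. Teleost fish have kept duplicate copies of several of these genes, marked a and b. The study asked how germ cells affect lifespan and body condition in each sex, and IGF-1 was among the hormones it followed. The female liver is also where the yolk precursors, the vitellogenins, are made. They took 12.5 to 19.3% of the counts in control livers and 0.00586 to 0.0152% in germ cell-removed livers.

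BRB-seq counts unique molecular identifiers (UMIs) near the 3′ end of each transcript. Female control livers held 28062 to 180764 counts and germ cell-removed livers 163968 to 256671, and muscles held 80573 to 221897. Levels are given as CPM, counts on a common library size, with sizes scaled by TMM, a method that equalizes the bulk of genes between libraries. A single count was worth 3.76 to 25.8 CPM in liver and 3.92 to 11.9 CPM in muscle, and a count of 3 over a group was taken as the detection floor, for counting error only. Fold changes come from edgeR's quasi-likelihood test, which covered genes with at least 10 counts over the compared libraries, with p-values adjusted by Benjamini-Hochberg over all of those genes and 0.05 as the threshold. All p-values concern the spread between fish.

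The labels held for both tissues. Muscle markers (8 genes) summed to at most 90.4 CPM in liver and at least 53610 CPM in muscle. Hepatocyte markers (7 genes, such as apolipoprotein A1 and fibrinogen) summed to at least 17670 CPM in liver and at most 1865 CPM in muscle. Exocrine pancreas markers (9 genes) reached 6069 to 82650 CPM in the livers. In bulk tissue, fewer cells of a type and less RNA per cell cannot be told apart.

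Most of the axis was seen at low depth, and mainly in liver. IGFBP2B led with 1102 counts over the 20 female livers, followed by IGFALS with 409, IGF2B with 380 and IGFBP1A with 244. IGFBP1B had 83 counts there, GHRA 51 and IGF1 27. These 7 genes carried nearly all of the signal in liver, and each was found in at least 13 of the 20 livers. The binding protein genes IGFBP2A, IGFBP4, IGFBP6 (1 OF 2) and IGFBP5B had 9, 2, 3 and 0 counts. The second growth hormone receptor, GHRB, had 3. Of the IGF-1 receptor genes, IGF1RB had 1 count in liver and IGF1RA 0, against 11 and 4 over the 40 muscles. The table names 2 lines IGFBP3 (2 OF 2), told apart here by identifier. Nfu_g_1_020576 had 8 counts in liver, and the 14 of Nfu_g_1_002433 all came from 1 library.

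**Figure D1:**
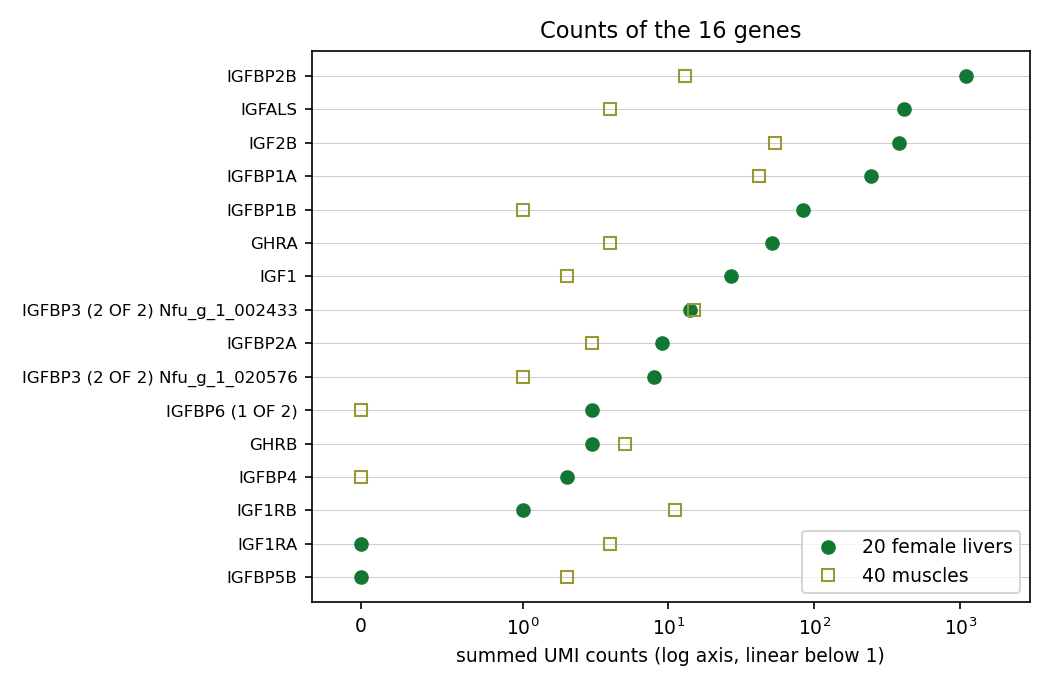
Summed UMI counts of each of the 16 genes over the 20 female livers (filled circles) and the 40 muscles (open squares), on a log axis that is linear below 1. IGFBP2B had 1102 counts in liver and 13 in muscle, while IGF1RB had 1 and 11.

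In the authors' build (the GRZ Assembly), IGFBP2B (Nfu_g_1_011177) lies on scaffold00853 from 526 to 61091, IGFALS (Nfu_g_1_007713) on sgr05 from 3960893 to 3963018, and IGF1 (Nfu_g_1_011897) on sgr01 from 88895126 to 88917335, all on the plus strand. IGF2B (Nfu_g_1_008157) lies on sgr13 from 33255240 to 33262705, on the minus strand. The IGFBP1 and IGFBP3 genes stand in neighbouring pairs. IGFBP1A (Nfu_g_1_002545, sgr17, 2518923 to 2522411, plus strand) is followed after 5015 bases by IGFBP3 Nfu_g_1_002433 on the minus strand. IGFBP1B (Nfu_g_1_020030, sgr09, 35462736 to 35463946, plus strand) is followed after 2772 bases by IGFBP3 Nfu_g_1_020576, also on the minus strand. No gene is annotated between the members of either pair, and their 3′ ends face each other, so a 3′ tag in the gap is near both.

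The most abundant member, IGFBP2B, was up in germ cell-removed females at both ages. IGFBP2 is a binding protein made in quantity by the liver. In young control livers its level was 230.4, 184, 227, 241 and 229 CPM, and in young germ cell-removed livers 266, 323, 367, 403 and 408 CPM. All 5 germ cell-removed livers lay above all 5 control livers. The change was 0.76 ± 0.22 on the log2 scale (SE, adjusted p = 0.021, edgeR), from 93 and 363 counts. In old females the control livers held 219, 155, 123, 266 and 361 CPM, and the germ cell-removed livers 485, 568, 445, 481 and 492 CPM. Again the groups did not overlap, with means of 225 ± 94.1 and 494 ± 45.1 CPM (SD, n = 5), and the change was 0.94 ± 0.28 (adjusted p = 0.0174). The young call was lost on leaving out any library but germ cell-removed replicate 1 (adjusted p 0.107 to 0.240), and the old one on leaving out control replicate 1 or 3 (0.057 and 0.0612).

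IGFALS was up in old germ cell-removed females. Old control livers had 33.6, 0, 41.1, 125 and 112 CPM and germ cell-removed livers 189, 128, 192, 175 and 244 CPM. On this scale the highest control liver lay just below the lowest germ cell-removed liver, and on sizes from the 10 old livers alone the groups overlapped (controls up to 142 CPM, germ cell-removed from 136 CPM). The change was 1.16 ± 0.36 (adjusted p = 0.0303) from 28 and 205 counts. In young livers the levels ran from 48.6 to 130.5 CPM in controls (mean 92.8 ± 32) and from 76.8 to 175 CPM after removal (131 ± 39.2). These overlapped, with a log2 difference of 0.62 ± 0.31 (adjusted p = 0.236). The old call was lost in the absence of any of 5 libraries, control replicates 1, 2 and 3 and germ cell-removed replicates 1 and 5 (adjusted p 0.056 to 0.130).

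IGF2B, the gene of the second ligand, went the other way in old females. Its level was 252, 258, 144, 158 and 112 CPM in old control livers and 80.8, 71.5, 122, 102 and 96.5 CPM in old germ cell-removed livers. On this scale only the lowest control liver reached into the germ cell-removed range, and on sizes from the 10 old livers alone the groups did not overlap (controls from 134 CPM, germ cell-removed up to 129 CPM). The log2 change was -1.004 ± 0.319 (adjusted p = 0.0317) from 60 and 107 counts. In young females no such difference was seen. Control livers ran from 85.5 to 211 CPM and germ cell-removed livers from 57.7 to 227 CPM, with a log2 difference of 0.22 ± 0.33 (adjusted p = 0.759). The effect of removal was lower in old than in young females by 1.03 ± 0.45 on the log2 scale, at an unadjusted p of 0.0253 and an adjusted p of 0.665, so the difference between the ages did not pass. Leaving out any of 3 libraries, control replicates 1 and 2 and germ cell-removed replicate 2, ended the call in old females (adjusted p 0.0588 to 0.114).

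**Figure D2:**
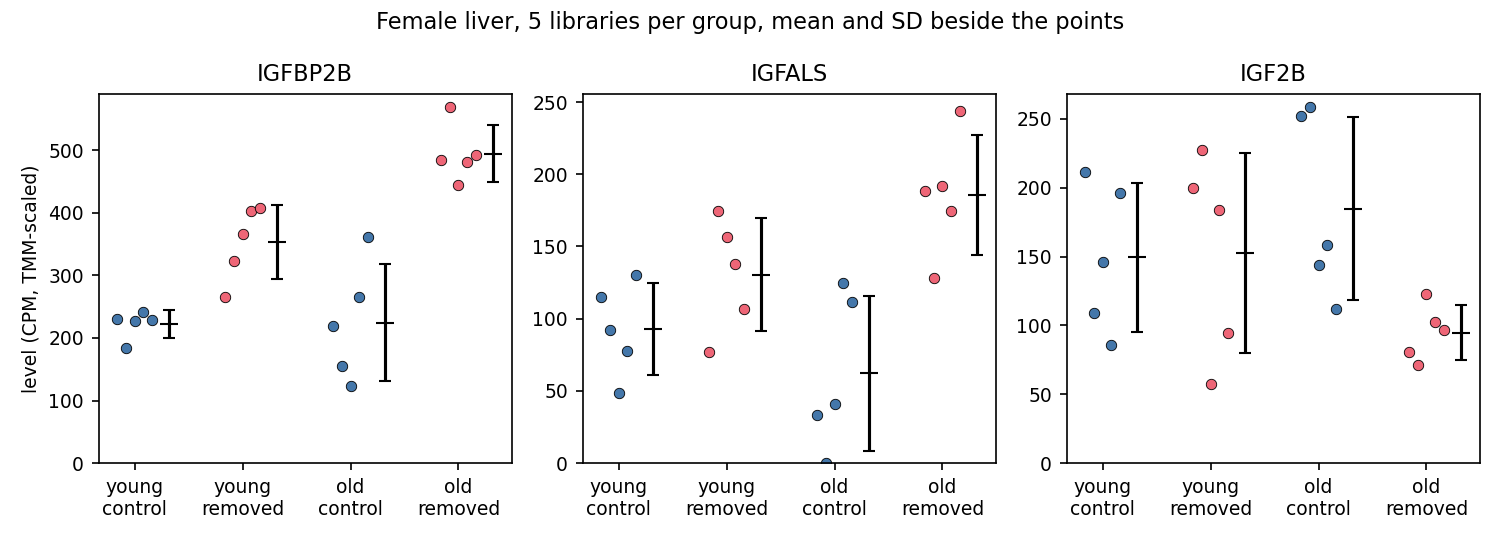
Levels of IGFBP2B, IGFALS and IGF2B in CPM in each of the 20 female livers (points, 5 per group), with the group mean and SD beside them. IGFBP2B of old germ cell-removed livers lay at 445 to 568 CPM and that of old control livers at 123 to 361 CPM, while IGF2B was lower in the old germ cell-removed group.

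These rises must be set beside those of other genes in the same libraries. Of 5459 genes tested in young female livers 9.58% were called (7.8% higher and 1.78% lower), and of 5576 in old ones 8.9% (6.94% higher and 1.95% lower). Of the axis genes, 2 of 8 tested were called in young livers (1 higher, 1 lower) and 3 of 7 in old livers (2 higher, 1 lower). The lower call in young livers, IGFBP3 Nfu_g_1_002433, rests on 1 control library. The median gene was higher by 0.43 in young and 0.46 in old germ cell-removed livers on the log2 scale. Relative to it, IGFBP2B was higher by 0.33 and 0.49, IGFALS in old livers by 0.70, and IGF2B in old livers stood at -1.46. With other scalings the median ran from 0.16 (RLE) to 0.69 (plain library sizes) in young and from 0.21 to 0.59 in old livers. None of these scalings turned the direction of a called member, but RLE ended the IGFBP2B calls (adjusted p = 0.244 in young and 0.0842 in old livers) and the IGFALS call (0.117), and plain sizes ended that of IGF2B (0.0519). DESeq2, with its own scaling, did not call IGFBP2B in young livers (0.24) or IGFALS in old ones (0.108). The share of all calls that were higher went from 81.5% in young and 78% in old livers with TMM to 52.2 and 58.9% with RLE and to 48.8 and 55.6% with DESeq2. It was 71.3 and 81.6% without genes over 1% of a library and 91.4 and 84.6% with plain sizes.

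By the labels, none of the control livers and all of the germ cell-removed livers were subsampled. Subsampling and removal can therefore not be told apart in liver. The control livers were also the shallower ones, so the libraries were thinned once, at random, to the smallest of each comparison. The median gene then stood at 0.14 in young and 0.05 in old livers. IGFALS in old livers fell from 1.16 to 0.24 (adjusted p = 0.852) and IGFBP2B in young livers from 0.76 to 0.26 (0.669), and neither passed. IGFBP2B in old livers kept a change of 0.91 but did not pass (0.0564). IGF2B in old livers stood at -1.59 and passed. With edgeR's stricter filter on low counts (filterByExpr), the calls of IGFBP2B in young (0.26, adjusted p = 0.265) and of IGFALS in old livers (0.83, 0.09) were lost as well.

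The hepatocyte markers rose more than any called member, with 7 of 7 called at each age and medians of 1.81 and 1.97 on the log2 scale. They summed to 27470 to 43920 CPM in young control livers and 112200 to 142300 CPM after removal, and to 17670 to 40130 and 99520 to 124500 CPM in old livers. Per 1000 hepatocyte marker counts, IGFBP2B was therefore lower after removal, at 4.19 to 8.39 in young control and 2.27 to 3.07 in young germ cell-removed livers. In old livers IGFBP2B ran from 5.93 to 11.2 in controls and from 3.9 to 5.3 after removal. IGFALS per 1000 such counts overlapped in old livers, at 0 to 3.46 (median 1.98) in controls and 1.19 to 1.99 (median 1.76) after removal. IGF2B did not, at 3.46 to 14.6 in controls and 0.649 to 1.15 after removal. In young livers neither gene overlapped and both were lower after removal. IGFALS there stood at 1.68 to 4.19 in controls and 0.685 to 1.31 after removal, and IGF2B at 2.16 to 7.69 and 0.483 to 1.78. The sign of the IGFBP2B change thus depends on the reference, as do those of the uncalled IGFALS and IGF2B differences in young livers. The called IGFALS rise in old livers was not kept with this reference either, where the ranges overlapped and the median was slightly lower after removal. IGF2B in old livers was already lower in CPM and the reference rose, so its sign could not turn with this reference. The markers include FGB and FGG, fibrinogen genes that the study reported as up after removal in females. As the reference itself changed with removal, these ratios are not levels per hepatocyte. Of the macrophage markers (5 genes), 1 of 3 tested was called in young and 0 of 3 in old livers, and their sums in control and germ cell-removed livers were 81.1 to 229 and 284 to 869 CPM in young and 77.5 to 410 and 273 to 704 CPM in old livers. Those macrophage sums were nearly all CD68, with 1338 counts over the female livers against at most 33 for any other gene of the list. Some markers of other cells moved too. In young livers 6 of 8 exocrine pancreas markers tested and 3 of 4 fibroblast markers were called higher (medians 0.92 and 1.47), and in old livers 0 of 8 and 0 of 4, with 1 of 2 adipocyte markers. The 2 adipocyte markers were CIDEC, with 433 counts over the female livers, and PLIN1, with 61. The part of cell makeup in these changes was not tested.

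**Figure D3:**
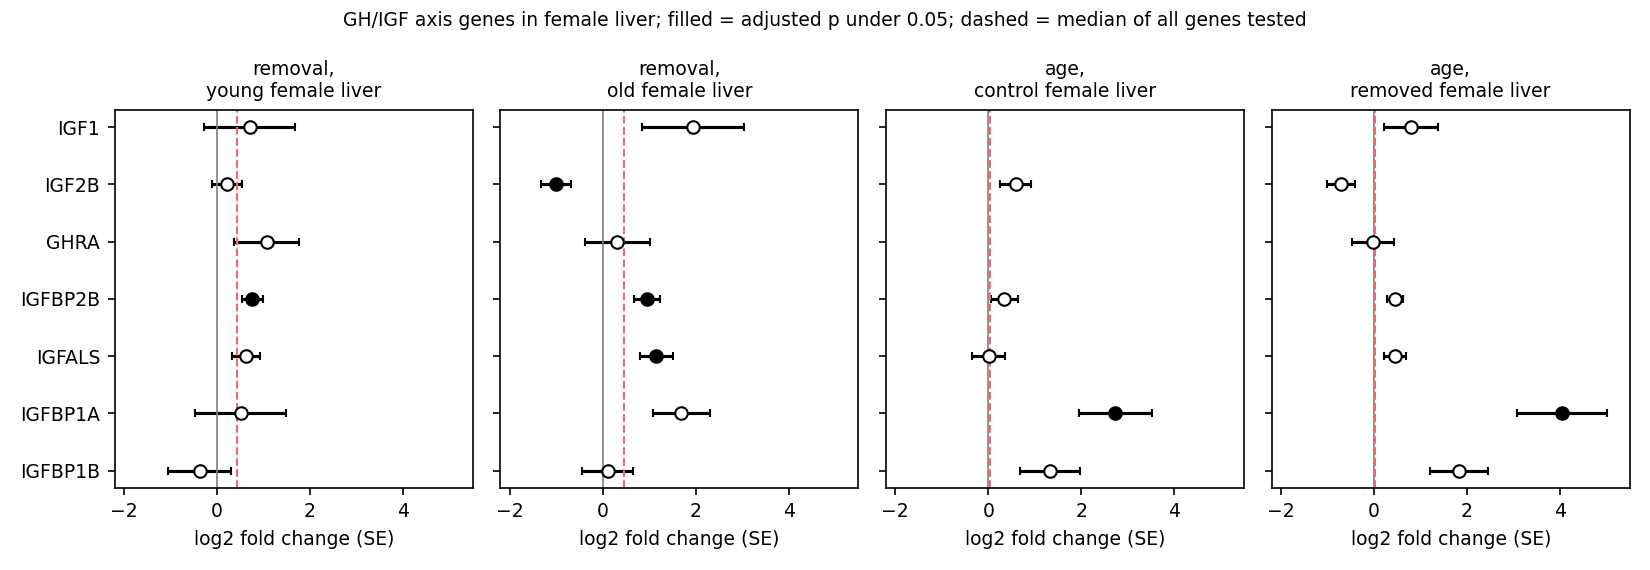
Log2 fold change with its SE of the 7 better counted axis genes in 4 comparisons of female livers (removal in young and old, old against young in control and in germ cell-removed fish). Filled points passed an adjusted p of 0.05, missing points were not tested, and the dashed line is the median of all genes tested, at 0.43 and 0.46 in the removal comparisons and at 0.04 and 0.02 in those of age. IGFBP3 is not drawn.

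IGF1 itself was too thinly counted for a call. Young control livers held 0, 1, 0, 0 and 1 counts and young germ cell-removed livers 1, 1, 2, 1 and 3. Old control livers held 0, 0, 0, 1 and 0 counts and old germ cell-removed livers 1, 2, 6, 2 and 5. IGF1 was thus detected in all 10 germ cell-removed livers and in 3 of 10 control livers, which were the shallower ones. Scaled for size, the ratio of germ cell-removed to control was 1.74 in young livers (95% exact interval 0.347 to 16.8) and 4.56 in old livers (0.709 to 191). The test gave 0.70 ± 0.97 (adjusted p = 0.736) and 1.93 ± 1.098 (unadjusted p = 0.0821, adjusted p = 0.307). A difference was not detectable at this depth, and both intervals hold a ratio of 1. The intervals cover counting error only. By RT-qPCR, another measure, the study reported igf1 as higher in livers of germ cell-removed females, with a difference that grew with age. The counts here are too few to test that result.

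For the growth hormone receptor gene GHRA no difference beyond the replicate spread was detectable either. It had 1, 1, 0, 2 and 0 counts in young control livers and 7, 3, 3, 3 and 4 in young germ cell-removed livers, with means of 8.62 ± 8.78 and 20.1 ± 9.9 CPM. In old livers it had 1, 1, 0, 1 and 2 counts in controls and 3, 3, 3, 7 and 6 after removal, with means of 15.2 ± 11 and 20 ± 9.44 CPM. The groups overlapped at both ages once scaled for depth. The log2 differences were 1.07 ± 0.70 (adjusted p = 0.404) and 0.31 ± 0.70 (adjusted p = 0.858).

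**Figure D4:**
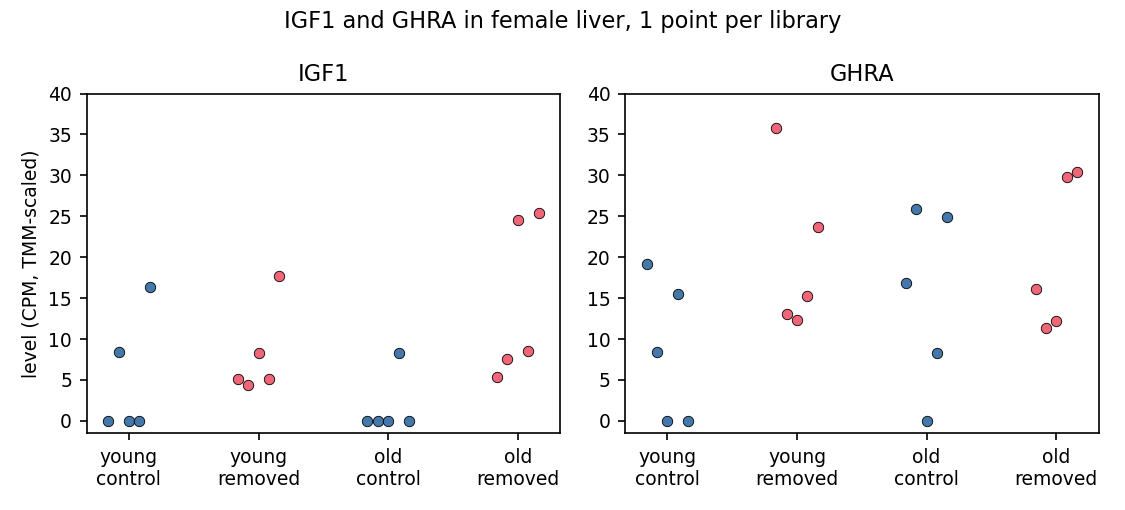
Levels of IGF1 and GHRA in CPM in each of the 20 female livers, 5 per group. IGF1 points at 0 are libraries with no count (3 young control and 4 old control livers), and the highest IGF1 values, 24.5 and 25.4 CPM, are 2 old germ cell-removed livers with 6 and 5 counts.

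IGFBP1A was called with age in control and in germ cell-removed livers, but neither call held under every left-out library. IGFBP1 is known in mammals and fish as the binding protein that rises with fasting and stress. In control females it rose from 0, 0, 1, 2 and 0 counts in young livers to 2, 3, 8, 1 and 2 in old livers, that is from 6.35 ± 8.7 to 61.7 ± 62.8 CPM. It was found in 2 of 5 young and in all 5 old control livers, and the log2 change was 2.73 ± 0.78 (adjusted p = 0.0421). In germ cell-removed females the young livers had 1, 2, 0, 1 and 6 counts and the old livers 5, 179, 23, 7 and 1. Here 1 old liver, replicate 2, held 179 of 215 counts. The log2 change was 4.05 ± 0.97 (adjusted p = 0.0168) with it and 1.96 (adjusted p = 0.164) without it. The call in controls was lost on leaving out young replicate 1, 2, 4 or 5 or old replicate 1, 2 or 3 (adjusted p 0.0689 to 0.390). That in germ cell-removed fish was also lost without young replicate 1, 2 or 3 (0.0511 to 0.0662). In controls 3 of 9 other settings kept the call. It was lost with RLE (0.0703), with every gene of at least 1 count (0.0917) and with thinning (0.166). Blocking by replicate number (0.177) and all groups in 1 fit (0.553) ended it too, and DESeq2 gave no adjusted p.

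Among all genes, 2.1% of 3385 tested were called with age in control livers and 3.54% of 6694 in germ cell-removed livers. Of the axis genes, 1 of 6 and 1 of 7 were called, IGFBP1A in each case. Its paralog IGFBP1B had 7 counts in young and 13 in old control livers (1.33 ± 0.65, adjusted p = 0.419), and 12 and 51 in germ cell-removed livers (1.83 ± 0.62, adjusted p = 0.117). Of those 51 counts, 33 came from replicate 2. IGFBP1A did not pass for removal in old livers (1.69 ± 0.62, adjusted p = 0.0751), where control livers ran from 8.32 to 164 CPM and germ cell-removed livers from 5.08 to 674 CPM. IGFBP2B and IGFALS did not pass for age in controls, where young and old livers stood at 222 ± 22 and 225 ± 94.1 CPM and at 92.8 ± 32 and 62.3 ± 53.7 CPM. Those means use sizes scaled over all female livers. On sizes from the control livers alone, the tested log2 differences with age were 0.35 ± 0.28 for IGFBP2B (adjusted p = 0.717) and 0.01 ± 0.35 for IGFALS (adjusted p = 0.996). In germ cell-removed livers IGFBP2B and IGFALS did not pass for age either, but both were higher in old fish on sizes scaled over all female livers. IGFBP2B ran from 266 to 408 CPM in young and from 445 to 568 CPM in old livers. IGFALS had means of 130.5 ± 39.2 and 185 ± 41.4 CPM. IGF2B differed with age in germ cell-removed livers by -0.70 ± 0.30 (adjusted p = 0.25).

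**Figure D5:**
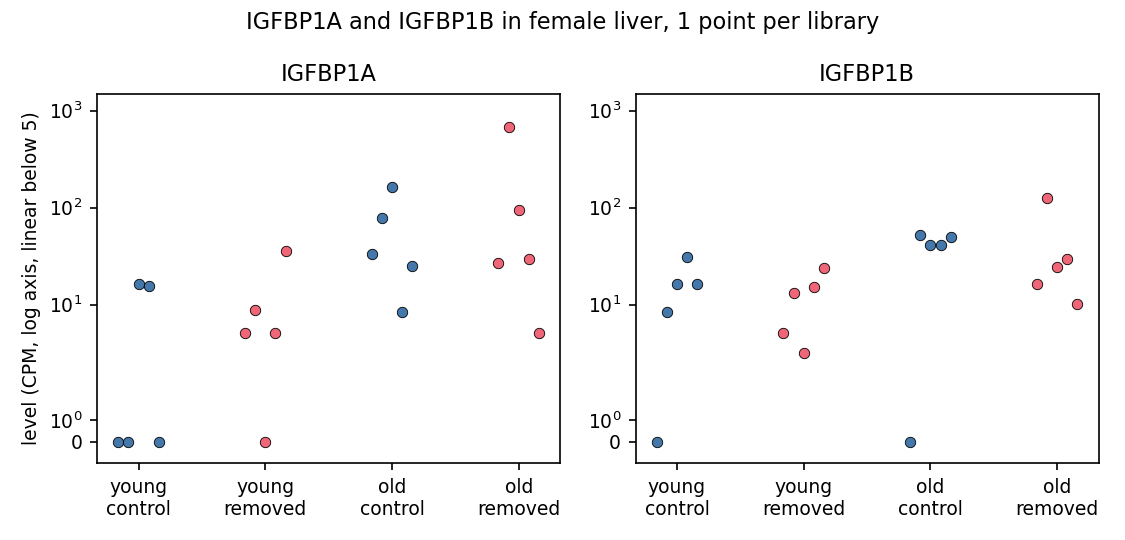
Levels of IGFBP1A and IGFBP1B in CPM in each of the 20 female livers, on a log axis that is linear below 5. Both genes have their highest value in the same old germ cell-removed liver, replicate 2, at 674 and 124 CPM.

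The effect of removal differed by age for none of the 8 axis genes tested by the interaction in edgeR, where 0.0408% of 7349 genes were called. Of the 8, IGF2B alone had an unadjusted p under 0.05, and DESeq2 called none. The estimate was 0.38 ± 0.35 for IGFBP2B (adjusted p = 0.864) and 0.71 ± 0.50 for IGFALS (adjusted p = 0.827).

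IGFBP3 is the main carrier of IGF in mammalian blood. The line Nfu_g_1_002433 was called lower in young germ cell-removed livers (-5.32, adjusted p = 0.0157), but its counts were 0, 0, 14, 0 and 0 in young control livers and 0 in all others. The call therefore rests on control replicate 3 alone, and DESeq2 did not make it (adjusted p = 0.215). The other line, Nfu_g_1_020576, had 0, 1, 1, 2 and 2 counts in old control livers and none in the 5 deeper old germ cell-removed livers. With 6 counts against 0 it was below the minimum for a test. In young livers it had 2 counts, both in 1 germ cell-removed library.

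In muscle, IGF2B and IGFBP1A were the only axis genes seen often, with 54 counts in 31 of 40 libraries and 42 counts in 21 libraries. IGF2B was near 1 count per library in most groups. Its group means ran from 3.79 ± 5.75 CPM in young germ cell-removed males to 14.4 ± 5.87 CPM in old control males. The IGFBP3 line Nfu_g_1_002433 gave 15 counts in 14 muscles and IGF1RB, the receptor gene, 11 counts in 10 muscles. The growth hormone receptor genes GHRA and GHRB gave 4 and 5 counts, and IGF1 gave 2.

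No axis gene was called in the 12 comparisons of muscle by removal, age or sex. They allowed 16 tests of a member, of which edgeR called 0, DESeq2 called 0, and 1 had an unadjusted p under 0.05. This was IGF2B in old males, at 20.7, 10.3, 11.6, 8.77 and 20.9 CPM in controls and 7.19, 0, 6.15, 10.0 and 4.22 CPM after removal. Only 1 germ cell-removed muscle reached above the lowest control muscle. The log2 difference was -1.31 ± 0.61 (unadjusted p = 0.0408, adjusted p = 0.983), from 14 and 5 counts. The reported test called few genes for removal in muscle, at 0.0639 and 0.165% in young and old females and 0% in young and old males. With age the share of all genes called was 3.99 and 6.02% in control and germ cell-removed females and 4.63 and 3.35% in such males. By sex it was 0.193 and 0.237% in young and old controls and 0.828 and 0.0672% in young and old germ cell-removed fish. In old females IGF2B differed by -0.03 ± 0.76 and IGFBP1A by 0.44 ± 0.84. The sex-by-removal interactions gave 4 tests of a member in 2 ages, with 0% of all genes called, and none had an unadjusted p under 0.05 in edgeR or was called by DESeq2.

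Between tissues of control females, the liver had the higher level of each called member. The filter favored that direction, since the axis genes tested reached the minimum count only through liver. Livers and muscles are separate samples of the series, so tissue and library pool cannot be told apart. The control livers were also not subsampled, while the muscles of control females were. In young fish IGFBP2B had 93 counts in liver and 0 in muscle, IGFALS 38 and 0, and IGF2B 56 and 4. All 3 were higher in every liver than in any muscle, by 7.52 ± 0.59, 6.23 ± 0.78 and 4.13 ± 0.55 on the fitted log2 scale (adjusted p 2.22e-08, 6.23e-06 and 8.66e-07). The first 2 folds depend on how a count of 0 is treated. In old fish IGFBP1B and IGFBP1A were called as well, at 3.89 ± 0.89 and 2.19 ± 0.78. Of all genes 44.9% (young) and 48% (old) were called between tissues, against 3 of 4 and 5 of 5 axis genes tested. Each of these axis genes had fewer than 10 counts in muscle and reached the minimum for a test only through liver. The share of them called and the direction of the calls can therefore not be read against those of all genes. Without old control liver replicate 3, IGFBP1A was no longer called (1.44, adjusted p = 0.193).

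Part of the muscle signal of members better counted in liver sat in 1 library. In old control female muscle, replicate 3 held 5 of 7 counts of IGFBP2B, both counts of IGFALS, 6 of 7 of IGFBP1A and 6 of 8 of IGF2B. The hepatocyte markers summed to 905 CPM in this library and to 31.8 to 326 CPM in the other 4 of the group. Over all muscles they ran from 6.2 to 1865 CPM, with the 3 highest group maxima in old fish (905, 1630 and 1865 CPM). In the groups with maxima of 1630 and 1865 CPM, old control and old germ cell-removed males, IGFBP2B had only 1 and 3 counts. Whether liver RNA accounts for these counts was not tested.

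The genes up- and downstream of the receptors were also examined as lists. For growth hormone receptor signaling (JAK2, STAT5 and tyrosine phosphatase genes, 9 lines), 6 were tested in young and 5 in old female livers, and edgeR called none. The only unadjusted p under 0.05 was that of STAT5.1, the transcription factor gene of the pathway, in young livers (0.87 ± 0.38, adjusted p = 0.171). For IGF-1 receptor signaling (44 lines), 14 were tested in young livers with none called and none under an unadjusted p of 0.05. In old livers 15 were tested and 1 was called. Over all genes 9.58% were called in young and 8.9% in old livers, so neither count exceeded the general share. The medians of this list were 0.15 in young and 0.58 in old livers, beside 0.43 and 0.46 over all genes.

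The called gene was DDIT4 (1 OF 2), which encodes a stress-induced inhibitor of mTOR. Its counts were 0, 1, 9, 2 and 2 in old control livers and 11, 109, 56, 19 and 13 after removal, or 50.4 ± 75.8 and 169 ± 152 CPM. The groups overlapped through control replicate 3. The log2 change was 1.91 ± 0.51 (adjusted p = 0.0074), and 1.29 (adjusted p = 0.0824) without germ cell-removed replicate 2, the library with most IGFBP1A. The call was also lost without control replicate 1, 2 or 4 (adjusted p 0.0554 to 0.0866), with RLE (0.0919) and by DESeq2 (0.321). With filterByExpr (0.169) and with thinning to equal depth (1.12, adjusted p = 0.409) it did not pass either.

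Among the related receptors and ligand, the insulin gene INS was up in livers of both ages. Young control livers had 154, 368, 292, 326 and 229 CPM, and young germ cell-removed livers 461, 467, 688, 740.1 and 396 CPM. Old control livers had 504, 517, 103, 225 and 62.2 CPM, and old germ cell-removed livers 1148, 1566, 935, 639 and 1289 CPM. At each age every germ cell-removed liver lay above every control liver, with log2 changes of 1.03 ± 0.23 (adjusted p = 0.00172) and 1.97 ± 0.31 (adjusted p = 1.27e-06). It also rose with age in germ cell-removed livers (0.99 ± 0.22, adjusted p = 0.0099). Insulin is made by pancreatic islets, and the exocrine pancreas markers in the same libraries ran from 12710 to 33320 and 18780 to 82650 CPM in young control and germ cell-removed livers, and from 6069 to 15040 and 7277 to 27070 CPM in old ones. These ranges overlapped, but 6 of 8 pancreas markers tested were called higher in young livers, and in old livers 0 of 8 were called and 6 had an unadjusted p under 0.05. The part of pancreatic tissue in the INS values was not tested. The young call was lost without control replicate 1 or 5 (adjusted p 0.0515 and 0.0656) and with filterByExpr (0.0571).

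In muscle the same lists gave no call for removal. Of 5368 genes tested with age in germ cell-removed female muscle, 6.02% were called. With age in germ cell-removed females, DDIT4 (1 OF 2) rose by 3.91 ± 0.84 (adjusted p = 0.00168), from 1 to 38 counts. At equal depth it did not pass (2.65, adjusted p = 0.0988), and DESeq2 gave it no adjusted p. The rise was not particular to germ cell-removed fish. In control female muscles DDIT4 (1 OF 2) had 0, 1, 1, 0 and 3 counts in young and 1, 10, 24, 2 and 6 in old fish, without a call. TSC2, which encodes an mTOR inhibitor, rose by 2.19 ± 0.65 (adjusted p = 0.0316), from 4 to 35 counts. The TSC2 call was lost on leaving out any of 6 of the 10 libraries (young replicate 1, 2, 3 or 4, old replicate 3 or 4), at adjusted p 0.0501 to 0.121. By DESeq2 (0.0737) and with thinning (0.238) it was lost as well. FBXO32 and TRIM63 are muscle ubiquitin ligase genes that insulin-like signaling holds down, and the study used them as its read-out. They were not called for removal by the test used here. The study's own edgeR analysis reported both as lower in old germ cell-removed females and unchanged in males. At the same threshold it also reported more genes in old female muscle than the 10 called here. The alternative settings were not run for FBXO32. In old females FBXO32 had 1, 49, 52, 1 and 5 counts in controls and 0, 16, 1, 1 and 0 after removal. The control muscles thus held 2 high libraries, and the log2 difference was -2.63 ± 0.85 (unadjusted p = 0.0049, adjusted p = 0.416). TRIM63 (2 OF 2) differed by -1.31 ± 0.49 (unadjusted p = 0.0132, adjusted p = 0.597). It fell with age in control males (-1.12 ± 0.30, adjusted p = 0.0225) and in germ cell-removed males (-1.34 ± 0.34, adjusted p = 0.0276), while the skeletal muscle markers also fell from at least 135000 CPM in each young male group to at most 104300 CPM in the old ones. Those calls were lost with plain library sizes (adjusted p 0.169 and 0.146) and on leaving out any of 5 of the 10 libraries in each comparison, at adjusted p-values of 0.0553 to 0.0758 in control males (young replicate 3, 4 or 5, old replicate 2 or 4) and 0.0504 to 0.178 in germ cell-removed males (young replicate 3 or 4, old replicate 2, 3 or 5).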

How the data were processed

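Livers of females and muscles of both sexes were profiled by BRB-seq, a pooled 3′ RNA-seq method with UMIs. The authors demultiplexed and subsampled reads, trimmed with Trim Galore 0.6.7, mapped with HISAT2 2.2.1 and assigned reads to genes with featureCounts 2.0.1. They then removed duplicate UMIs with UMI-tools and deposited the counts without normalization. The strand setting of the counting is not given in the sources used here. All 10 female control livers were listed as not subsampled and all 10 germ cell-removed ones as subsampled. In liver, subsampling and removal can therefore not be told apart. The study's methods describe random sampling of reads for female liver and muscle, with no such split. Of the per-sample columns, 20 (male livers) were not used here, since they run over 20406 lines against 18529 annotated ones and are shifted against the gene names.

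Counts were tested with edgeR 4.0.16 in R 4.3.3 (glmQLFit and glmQLFTest, TMM, at least 10 counts over the compared libraries, adjusted p under 0.05), each comparison on its own libraries. The fit was checked on simulated data with known changes in well-counted genes, as many up as down. That check does not cover sparse genes or an uneven shift such as the loss of vitellogenin. The alternatives changed the scaling (RLE, or none), dropped genes above 1% of a library, used DESeq2 1.42.0, filterByExpr, genes with at least 1 count, the legacy fit or all groups in 1 fit, thinned to the smallest library, blocked by replicate number, or left out each library. Those for INS, DDIT4, TSC2 and TRIM63 were added after seeing the data. The members, lists and marker sets were chosen with earlier results of these data known. Genes named are all members, called list genes, FBXO32, TRIM63 and genes beside a member result. STAT5.1, HTRA1B, HMOX1 and the other genes from the orderings of single libraries were named after their values were seen. Identical libraries were looked for, and within every group all pairs differed by more than counting error.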

Additional observations from a re-analysis of the deposited data

Results flagged for a closer look

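In 25 sets of 5 libraries an axis gene had at least 10 counts. Of these, 6 held a library far from its group, by the ratio of the gap to the range (Dixon). The nominal rate of 1 in 20 assumes normal values and separate sets. Counts this sparse do not meet it, and some sets share a library, so no excess over chance can be read from the 6. Each value is given with no explanation. IGFBP1A stood at 674 CPM in old germ cell-removed liver replicate 2, with the next library at 94 CPM. IGFBP1B stood at 124 CPM in the same library, with the next at 29.8 CPM. IGFBP1A was also high in young germ cell-removed liver replicate 5, at 35.5 CPM against 8.73 CPM for the next. IGFBP3 Nfu_g_1_002433 stood at 227 CPM in young control liver replicate 3 and was at 0 in the other 4. IGFBP2B was low in young control liver replicate 2, at 184 CPM beside 227 CPM for the next, a narrow group in which any small step stands out. IGFBP1B had 0 counts in old control liver replicate 1, against at least 41.1 CPM in the other 4, where a single count is worth up to 25.8 CPM.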

How the results depend on the processing

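All 6 counts of axis genes called that were above 0 (4 in liver, 2 between tissues) moved by over 1.5 times under some setting or left-out library, and the 15 counts of 0 (muscle and the interactions) stayed at 0. For removal in young female livers the count of 2 fell to 1 with RLE size factors, without genes over 1% of a library, with every gene of at least 1 count and with all groups in 1 fit, and to 0 with DESeq2, filterByExpr and thinning, with a range of 0 to 2 over left-out libraries. In old livers the count of 3 fell to 1 with RLE and thinning, and ran from 0 to 4 over left-out libraries. For age in control livers the count of 1 fell to 0 with RLE, DESeq2, filterByExpr, every gene, all groups in 1 fit, thinning and the replicate block, rose to 2 with the legacy fit, and was 0 to 1 over left-out libraries. For age in germ cell-removed livers it rose to 2 with every gene and with all groups in 1 fit, fell to 0 with the replicate block, and was 0 to 1 over left-out libraries. Between tissues it ran from 1 (filterByExpr) to 5 (every gene) in young fish, where 3 were reported, and fell from 5 to 2 with filterByExpr in old fish. The cause was not tested, except that filterByExpr, thinning and fewer libraries leave fewer counts or genes. For the 7 calls of axis genes by removal or age in liver, 42 of 67 alternatives other than left-out libraries kept the direction and the call, and 0 reversed.

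Over all genes, the 523 calls for removal in young livers became 804 with plain library sizes and 264 with thinning, and the 496 in old livers 220 with thinning. For age, the 71 calls in control livers became 41 with all groups in 1 fit, 44 with every gene, 18 with thinning and 22 with the replicate block, and the 237 in germ cell-removed livers 110 with the block. In muscle, plain library sizes raised the calls for age from 224, 323, 240 and 175 to 362, 789, 965 and 608 in control and germ cell-removed females and males, and for sex in young controls 9 calls became 100 with DESeq2. For removal, the 3 calls in young female muscle became 20 with DESeq2, 47 with the replicate block and 72 with every gene, and the 10 in old females 45 with every gene. No axis gene was among the calls in muscle under any of these settings.

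Same-numbered libraries had correlations of -0.143 to 0.273 over genes, and in no comparison were all 5 over 0.1, so the numbers were not taken to pair fish. In old male muscle 4 of 5 were over 0.1 and each library was closest to its own number, and the replicate block left the count of axis genes there at 0. The block ended the IGFBP1A calls with age (adjusted p = 0.177 in control and 0.0916 in germ cell-removed livers), the INS call with age in germ cell-removed livers (0.0934) and the TSC2 call in muscle (0.0788). All groups in 1 fit was not run between tissues, and for the liver interaction it is the reported test. Depth limits most genes: 9 of 16 axis genes had at most 14 counts over the 20 livers, and a control liver with a single count can hold up to 25.8 CPM.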

Other observations

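The old germ cell-removed liver with the highest IGFBP1A (replicate 2) also differed from its group in a few other genes. Genes were ordered in this library by the ratio of their CPM to the highest of the other 4 livers, after adding 20 CPM to both. HMOX1, which encodes the inducible heme oxygenase, came first, with 282 counts against at most 10 in the other 4. IGFBP1A came second, with 179 against at most 23, and IGFBP1B seventh, with 33 against at most 7. DDIT4 (1 OF 2) was also highest there, with 109 counts against at most 56. The library held counts of muscle genes as well, such as MYLPFA with 14 against at most 1, and its skeletal muscle markers were the highest of any liver, at 90.4 CPM.

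In young control liver replicate 3 the same ordering put IGFBP3 Nfu_g_1_002433 first, with 14 counts against 0 in the other 4. The next genes, EFCAB4A, SEC23A and RAB5C (1 OF 2), had 3 counts against 0 each. Its neighbour IGFBP1A had 1 count in that library. HTRA1B, which encodes a secreted protease of the HTRA1 family, had 0 counts in young and old control livers and 10 and 13 after removal. The control livers were the shallower ones, and edgeR did not call it (adjusted p = 0.125 and 0.121).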
